A study of Homo sapiens with 12 samples.

Results

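The comparison described here asks what the BET bromodomain inhibitor JQ1 did to gene expression in breast cancer cells that also received GSK2801. Its members are the 6 of the study's 12 RNA-seq libraries that carry GSK2801, namely the 3 labelled with JQ1 and GSK2801 and the 3 labelled with GSK2801 only, and each combination library was compared with the GSK2801 library of its own cell line. The lines were SUM159, MDAMB231 and HCC1806, which are established triple-negative breast carcinoma lines, with 1 library per line and treatment after 72 h. GSK2801 was given at 10 µM in every one of these 6 libraries, so the reference group is itself treated. JQ1 was given at 300 nM to SUM159, at 100 nM to MDAMB231 and at 500 nM to HCC1806. The media differed too: SUM159 and MDAMB231 were kept in DMEM/F12 to which serum, hydrocortisone and insulin were added, and HCC1806 in RPMI 1640 with serum alone. Effects of line, dose and medium therefore cannot be told apart. The other 6 libraries, treated with DMSO or with JQ1 only at the same doses, were used to set the JQ1 response without GSK2801 beside the one with it.

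BET proteins, such as BRD2 and BRD3, bind acetylated histones through paired bromodomains and help RNA polymerase II to elongate, partly by recruiting the kinase complex P-TEFb. JQ1 occupies those bromodomains, and HEXIM1, an inhibitor of P-TEFb, is a widely used readout gene of BET inhibition. GSK2801 binds the bromodomains of BAZ2A and BAZ2B, subunits of chromatin remodelling complexes, and at higher concentrations also that of BRD9.

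Values are the authors' signal, estimated read counts scaled so that the upper quartile of the values above 0 was 1663.93 in every library. Depth was estimated at 26600000 to 46800000 reads in the 6 libraries, with 16091 to 16774 genes above 0. The 10 genes of highest signal held 4.67% to 7.57% of a library, and the MDAMB231 library with both inhibitors was the deepest and had the highest such share. Of the receptors that define the triple-negative class, the hormone receptors ESR1 and PGR lay between 0 and 112 and between 0 and 8.12. ERBB2 transcripts lay between 1810.0 and 5858, and ERBB2 protein was not measured. The mesenchymal filament gene VIM was at 90380 or more in SUM159 and MDAMB231 and at 46.9 to 120.4 in HCC1806, where the epithelial genes CDH1 and EPCAM were at 13765 or more. T cell CD3E and adipocyte ADIPOQ were listed at 0 in all 6 libraries. Not all markers of other cell types were: in the SUM159 library with GSK2801, PDGFRA was at 4788, PECAM1 at 1145, DCN at 227 and PTPRC at 60.4. Each of these was lower in the other libraries. Bulk RNA cannot tell a smaller number of cells of a kind from less RNA per cell.

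With JQ1 added, 452 of 12379 genes tested passed the threshold, 3.65% of those tested. Of these, 231 rose (1.87%) and 221 fell (1.79%), and 207 of the rises and 198 of the falls were at least 2-fold. The test was limma on log2(value + 1) with the cell line as a block and an adjusted p (Benjamini-Hochberg over all genes tested) under 0.05, and all fold changes here are on that scale. All log2 changes are means over the 3 lines ± the standard error (SE) of the fit, n = 3 lines. Runs of 3 values are given throughout in the order SUM159, MDAMB231 and HCC1806. The median log2 change of all genes tested was -0.08. The adjusted p of the 452 genes lay between 0.0362 and 0.0499, close under the threshold, and without the SUM159 pair or without the HCC1806 pair limma called 0 genes (2683 and 2225 at an unadjusted p under 0.05, against 3650 with the 3 lines). It also called 0 genes without the filter on low values, without the variance trend, without the line block and when a change beyond 1.5-fold was required. These p-values measure the spread between lines, since each line has 1 library per treatment.

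Largest among the rises were EFR3B, a membrane anchor of the phosphatidylinositol 4-kinase complex, the microtubule-associated genes DPYSL3 and MAP1A, YPEL1, C14orf37 and 5 histone genes. Largest among the falls were the noncoding RNAs CCAT1, MYOSLID and SFTA1P, the interleukin-7 receptor IL7R, NAV3, FAM196B, the nuclear receptor HNF4G, the kynurenine-pathway enzyme KYNU, the stress gene NUPR1 and the hyaluronan synthase HAS2. The log2 change was 4.88 ± 0.66 for DPYSL3, 4.44 ± 0.56 for C14orf37, 3.83 ± 0.39 for YPEL1 and 3.72 ± 0.60 for MAP1A. YPEL1 was even across the lines, with log2 ratios of 3.98, 3.99 and 3.52, while MAP1A ranged from 2.43 to 5.54.

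**Figure D1:**
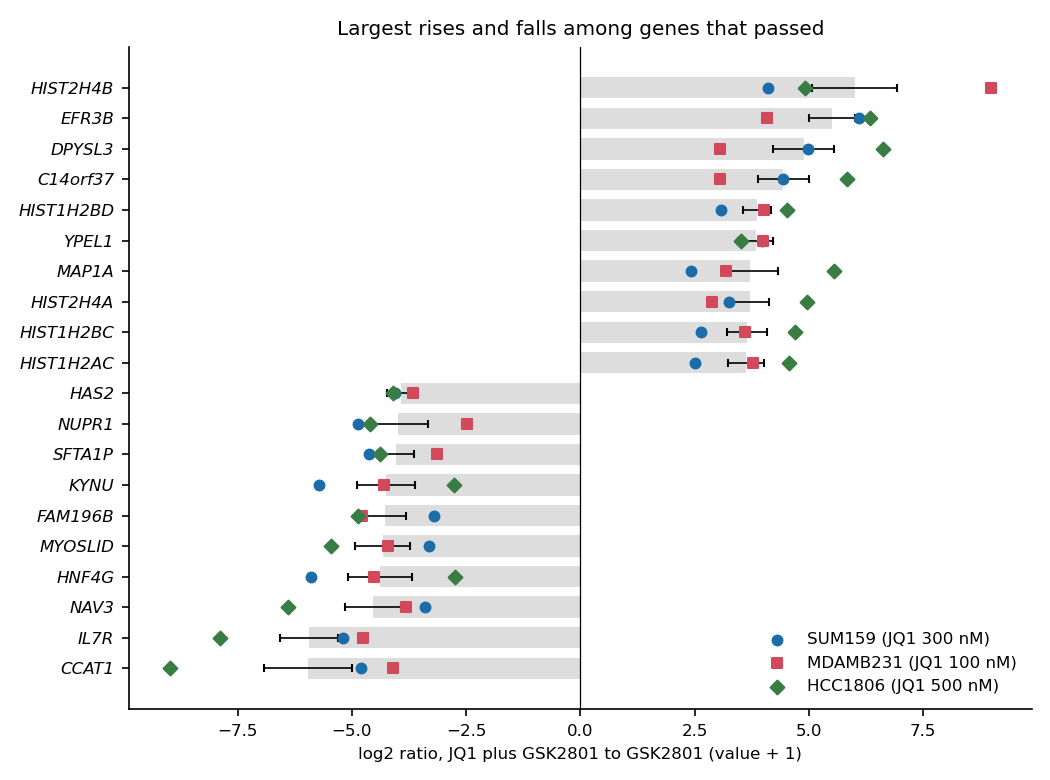
Log2 ratio of JQ1 plus GSK2801 to GSK2801 for the genes that passed and changed most, 10 higher and 10 lower. Bars show the mean of the 3 lines, whiskers the SE of the fit and symbols the single lines. The same sign in the 3 lines was a condition for choosing these 20 genes, and all 452 genes that passed met it. The spread over lines is narrow for YPEL1 and HAS2 and wide for HIST2H4B and CCAT1.

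EFR3B signal was 16.6, 69 and 10.5 with GSK2801 and 1204, 1191 and 927 with both. The 2 groups did not overlap: the lowest combination library stood far above the highest GSK2801 library. Its log2 change was 5.50 ± 0.50 (45.4-fold higher, adjusted p = 0.0362, limma), and the log2 ratio was 6.10, 4.09 and 6.33 per line. The gene lies at chr2:25042130-25159137 on the plus strand of hg38. Of the 10 genes tested that encode EFR3 proteins, PI4KA and their partners, EFR3B was the only one to pass, against 3.65% of all genes tested. The paralog EFR3A had 0.54 ± 0.14 (adjusted p = 0.085, limma), the kinase PI4KA 0.80 ± 0.17 (0.0622) and the scaffold TTC7B -0.84 ± 0.21 (0.0784).

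KYNU encodes kynureninase, which cleaves kynurenine-pathway metabolites of tryptophan. Its signal was 51.6, 387 and 187 with GSK2801 and 0, 18.7 and 26.7 with both, so that it was listed at 0 in the SUM159 combination library. Each combination library was below each GSK2801 library. The log2 change was -4.26 ± 0.63 (adjusted p = 0.0424, limma), with -5.72, -4.30 and -2.77 per line, and the SUM159 value depends on the pseudocount. KYNU lies at chr2:142877498-143055832 on the plus strand. Among the 8 tested genes on the list for this pathway, which also holds WARS, SLC7A5 and AHR, no other passed. Of all genes tested 3.65% did. Pathway enzymes such as IDO1, TDO2, KMO, HAAO and QPRT lay below the filter and were not tested. The aryl hydrocarbon receptor AHR, a receptor for kynurenine, had 1.15 ± 0.23 (0.0597) and the aminotransferase AADAT -1.27 ± 0.32 (0.0789).

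HNF4G, a nuclear receptor best known from gut epithelium, had a signal of 227, 189 and 12.9 with GSK2801 and 2.83, 7.34 and 1.07 with both. The groups did not overlap, although HCC1806 was already low with GSK2801 alone. Its log2 change was -4.39 ± 0.70 (adjusted p = 0.0434, limma), with -5.90, -4.51 and -2.75 per line, and the gene lies at chr8:75407914-75566843 on the plus strand. The SUM159 and HCC1806 ratios depend on the pseudocount, since 1 read was worth 0.94 and 1.07 in their combination libraries. Of the 12 tested genes on the list of HNF and endodermal transcription factors, HNF4G fell and MAFA, a factor of the pancreatic beta cell, rose by 3.33 ± 0.51 from a low level (1.75, 16.2 and 22.3 with GSK2801 and 43.5, 80 and 308 with both). FOXA1 (0.76 ± 0.35) and FOXA2 (-1.04 ± 0.50) did not pass, and over all genes tested 3.65% did.

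Genes tied to BET and P-TEFb function gave 2 rises and no fall among 16 tested, against 1.87% and 1.79% over all genes tested. The list's median log2 change was 0.12 (0.03 without the HCC1806 pair). HEXIM1 signal was 3029, 3119 and 2532 with GSK2801 and 9756, 8933 and 8566 with both. The 3 GSK2801 libraries lay close together and well below the 3 combination libraries, and the change was 1.65 ± 0.14 (3.15-fold higher, adjusted p = 0.0362, limma) with 1.69, 1.52 and 1.76 per line. BRD2 rose by 1.21 ± 0.16 (0.0412), from 11224, 9233 and 8695 with GSK2801 to 28910.5, 17739 and 21530.3 with both. Its paralog BRD3 did not pass, with 0.21 ± 0.15. SERTAD1, a cofactor of cyclin-dependent kinase and E2F regulation, had 1.12 ± 0.21 and the elongation factor AFF1 0.79 ± 0.17, with adjusted p of 0.0532 and 0.0634 (limma). None of the 13 genes tested for the proteins that GSK2801 binds and their complex partners passed. BAZ2A had 0.06 ± 0.19, BAZ2B -0.32 ± 0.22 and BRD9 -0.33 ± 0.18.

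**Figure D2:**
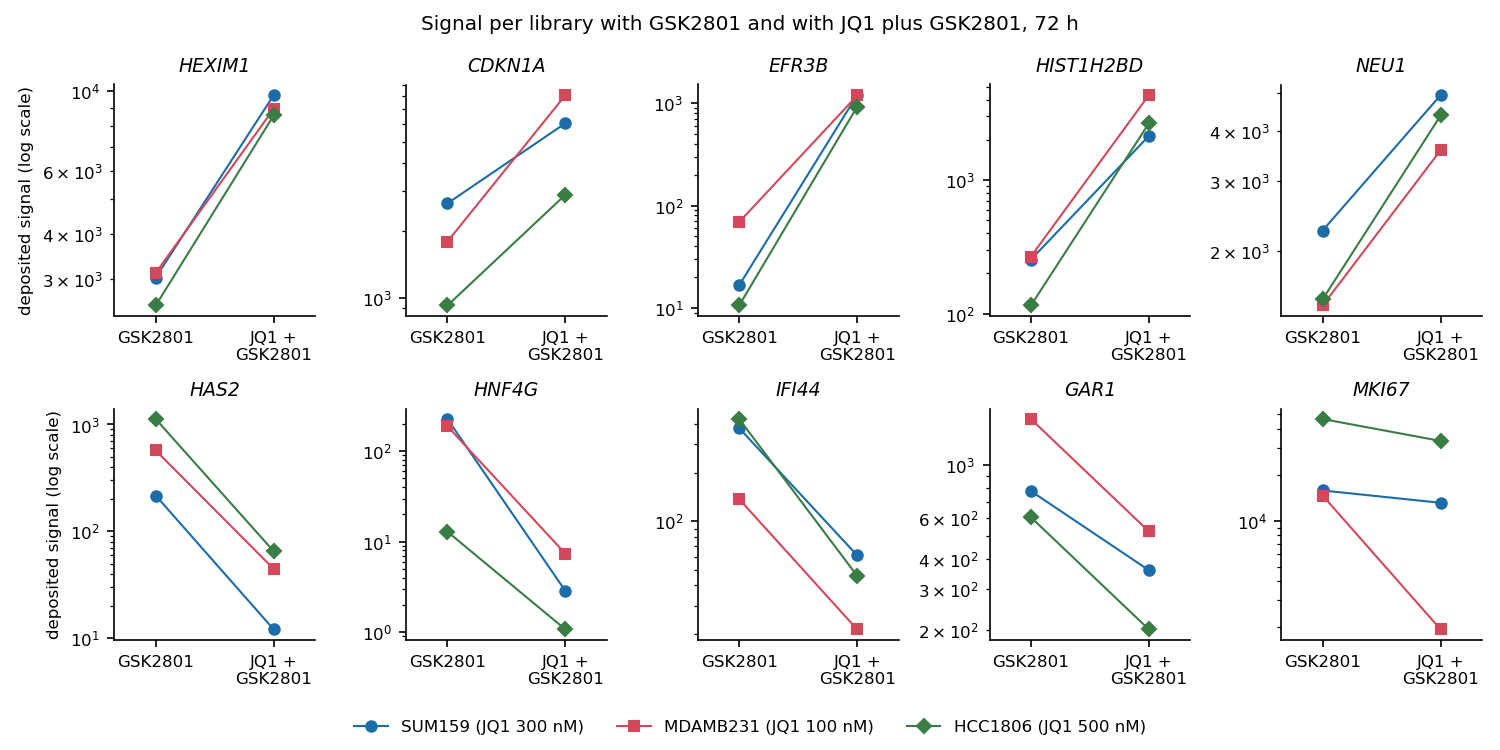
Deposited signal of 10 genes (log scale, own range per panel) in the GSK2801 library and the JQ1 plus GSK2801 library of each line, joined by a line. HEXIM1, CDKN1A, EFR3B, HIST1H2BD and NEU1 are higher and HAS2, HNF4G, IFI44 and GAR1 lower in each of the 3 lines, while MKI67 differs most in the MDAMB231 pair, from 14582 to 1936.

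Of the gene lists examined, that of histone genes had the largest median change. Most histone mRNAs are made in S phase and end in a stem-loop without a poly(A) tail, but some histone genes also give polyadenylated transcripts, which polyA selection captures. Of 19 such genes and linker histone genes tested, 8 rose and none fell, with a median log2 change of 2.62, and 15 had a positive ratio in all 3 lines. Of all genes tested, 1.87% rose and 22.5% had a positive ratio in all 3 lines. The 8 were HIST1H1C, HIST1H2AC, HIST1H2BC, HIST1H2BD, HIST2H2AA3, HIST2H2BE, HIST2H4A and HIST2H4B. HIST2H4A and HIST2H4B are near-identical copies, as are HIST2H2AA3 and HIST2H2AA4, and reads can be divided between them arbitrarily. HIST2H4B was listed near 0 in the MDAMB231 library with GSK2801, so its change of 6.0 ± 0.93 depends on the pseudocount.

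HIST1H2BD, a histone H2B gene, had a signal of 253, 267 and 115 with GSK2801 and 2138, 4324 and 2659 with both. Every combination library was above every GSK2801 library, and the change was 3.87 ± 0.31 (adjusted p = 0.0362, limma). HIST1H2AC, an H2A gene, had 640.4, 299.6 and 118 with GSK2801 and 3624, 4134 and 2817 with both and a change of 3.61 ± 0.39. HIST1H2BC, its divergent H2B neighbour, had 50.8, 43 and 27.7 with GSK2801 and 321, 537 and 736 with both and a change of 3.64 ± 0.44. HIST2H2BE, another H2B gene, had 289, 16.6 and 42.7 with GSK2801 and 2004, 290.2 and 515 with both and a change of 3.47 ± 0.33. The linker histone HIST1H1C rose by 2.75 ± 0.29. Among the 11 that did not pass, HIST1H2BJ, HIST2H2BF, HIST3H2A and HIST4H4 had a negative ratio in MDAMB231 and positive ratios in SUM159 and HCC1806. The list's median per line was 2.50, 1.30 and 3.46. Of 8 genes for histone variants and replacement histones, such as H3F3A (0.71 ± 0.15) and CENPA (-1.05 ± 0.48), none passed, against 3.65% of all genes tested. Their median was 0.04.

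The promoter windows of 3 histone genes that rose are shown for the core elements they hold. Each window runs from 250 bases before to 50 bases after the RefSeq start site (build GRCh38.p14) and is written 5′ to 3′ on the gene's strand, with capitals for TATAAA, the letters of the TATA box, and ATTTGCAT, the octamer bound by OCT1, in either orientation (reverse complements TTTATA and ATGCAAAT). HIST1H2BC (RefSeq H2BC4, chr6:26123877-26124176, minus strand), HIST2H2BE (H2BC21, chr1:149886633-149886932, minus strand) and HIST1H2BD (H2BC5, chr6:26157871-26158170, plus strand) are given in that order.
HIST1H2BC: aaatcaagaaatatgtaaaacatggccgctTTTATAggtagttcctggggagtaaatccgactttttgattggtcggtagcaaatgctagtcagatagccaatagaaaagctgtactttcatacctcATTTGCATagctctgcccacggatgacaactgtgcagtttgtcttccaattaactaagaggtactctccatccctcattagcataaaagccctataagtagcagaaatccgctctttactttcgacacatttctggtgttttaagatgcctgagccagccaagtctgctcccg
HIST2H2BE: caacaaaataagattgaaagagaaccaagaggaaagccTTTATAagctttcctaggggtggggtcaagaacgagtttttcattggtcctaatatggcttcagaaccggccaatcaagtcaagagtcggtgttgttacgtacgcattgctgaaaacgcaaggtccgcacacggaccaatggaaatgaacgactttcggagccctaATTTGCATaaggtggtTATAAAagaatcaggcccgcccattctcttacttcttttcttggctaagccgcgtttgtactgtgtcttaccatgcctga
HIST1H2BD: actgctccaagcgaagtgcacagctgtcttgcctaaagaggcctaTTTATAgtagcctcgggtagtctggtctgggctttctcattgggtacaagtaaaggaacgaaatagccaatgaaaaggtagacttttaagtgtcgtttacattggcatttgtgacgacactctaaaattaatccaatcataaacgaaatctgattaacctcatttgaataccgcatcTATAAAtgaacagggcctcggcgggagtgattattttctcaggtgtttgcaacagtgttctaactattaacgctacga
HIST1H2BC and HIST1H2AC share 255 bases of their windows (chr6:26123922-26124176) on opposite strands, so 1 octamer serves as a match in both. The same holds for their only TATAAA match (chr6:26124141-26124146), which starts at base 220 of the HIST1H2AC window on that gene's strand and at base 31 of the HIST1H2BC window on the opposite strand, and for their CCAAT matches. Windows were found for 18 of the 19 histone genes, of which 10 held TATAAA (55.6%), 6 the octamer (33.3%) and 13 the CCAAT box, CCAAT or ATTGG (72.2%), with HIST1H2BC and HIST1H2AC counted in each as 2 windows. Over the 10066 genes tested that had a window these shares were 5.39%, 1.30% and 37.2%, and over all 27305 RefSeq windows they were 12%, 1.80% and 35.7%. Among genes that rose and had a window, 10.3% held TATAAA and 5.41% the octamer, and among genes that fell 7.91% and 0.565%. The histone genes are part of the group that rose. The median GC content was 69.3% in windows of genes that rose, 62% in those of genes that fell and 65.3% over all genes tested.

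The windows of EFR3B (chr2:25041826-25042125, plus strand) and KYNU (chr2:142877414-142877713, plus strand) are shown beside these as examples of a gene that rose and one that fell, with the same capitals. EFR3B has a GC content of 72% and neither element, and KYNU one of 42.3% and 3 TATAAA matches, of which those starting at base 183 and base 185 of the window overlap.
EFR3B: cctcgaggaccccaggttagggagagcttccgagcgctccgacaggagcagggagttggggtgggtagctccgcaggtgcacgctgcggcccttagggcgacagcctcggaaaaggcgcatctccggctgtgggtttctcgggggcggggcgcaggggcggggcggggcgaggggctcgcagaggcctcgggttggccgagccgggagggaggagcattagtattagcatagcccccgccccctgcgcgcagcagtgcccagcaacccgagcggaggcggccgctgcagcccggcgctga
KYNU: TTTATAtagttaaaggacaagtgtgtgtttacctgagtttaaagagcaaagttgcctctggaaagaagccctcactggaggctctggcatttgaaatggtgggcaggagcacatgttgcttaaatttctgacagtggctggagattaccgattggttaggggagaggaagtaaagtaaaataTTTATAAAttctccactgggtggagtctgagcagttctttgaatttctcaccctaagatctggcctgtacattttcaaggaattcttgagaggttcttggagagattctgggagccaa
A match describes letters in the window, and factor binding was not measured.

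Over all genes tested 1.87% rose and 1.79% fell, and the list of autophagy and lysosome genes had a median of 0.43. Of its 40 genes tested 7 rose and none fell. They were ULK1 (1.09), the kinase that starts autophagy, ATG2A (0.94), a lipid transfer protein of the growing autophagosome, MAP1LC3B (1.27), its membrane mark, and the lysosomal genes GRN (1.15), NEU1 (1.32), ATP6V0D1 (1.20) and PSAP (1.04). NEU1, a sialidase, had a signal of 2247, 1455 and 1508 with GSK2801 and 4928, 3581 and 4378 with both, and its groups did not overlap. MAP1LC3B had 4546, 2828 and 1514 with GSK2801 and 9536, 7508 and 3819 with both, and the groups overlapped because the SUM159 library with GSK2801 was above the HCC1806 library with both, although each line's ratio was at least 1.07.

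The neuronal list was written with earlier results of these data known, and 16 of its 32 genes reached the filter and were tested. Their median was 1.10. Against 1.87% of all genes tested that rose, 5 of the 16 rose and none fell. Besides DPYSL3 and MAP1A these were BAIAP3 (3.60 ± 0.31), an exocytosis factor, the adhesion molecule L1CAM (3.29 ± 0.40) and GPRIN1 (1.11). BAIAP3 signal was 53.5, 33 and 128 with GSK2801 and 486, 628 and 1399 with both, without overlap between the groups. L1CAM had 7, 733 and 142 with GSK2801 and 69.9, 3845 and 2855 with both, and the groups overlapped because SUM159 stayed below the other lines throughout. The summed signal of this list lay between 12868 and 26627 with GSK2801 and between 29747 and 66209 with both.

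Antioxidant genes of the NRF2 and aryl hydrocarbon receptor list gave 3 rises among 24 tested, against 1.87% over all genes tested. Among the rises were TXNRD1, thioredoxin reductase, with 1.35 ± 0.17 and the ferritin heavy chain FTH1 with 1.74 ± 0.28. FTH1 was among the most abundant transcripts, with 132809, 33812 and 23007 with GSK2801 and 427834, 177157 and 50616 with both. Other abundant genes that rose were the secreted chaperone CLU (2.63 ± 0.30), PEG10 (2.12 ± 0.28), the thioredoxin-binding TXNIP (2.11 ± 0.37), tubulin TUBA1A (2.06 ± 0.30) and TRNP1 (2.24 ± 0.25). CLU signal was 3386, 524 and 1996 with GSK2801 and 18978, 5795 and 7668 with both.

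CDKN1A, which encodes the CDK inhibitor p21, rose by 1.67 ± 0.22 (adjusted p = 0.0412, limma), with a signal of 2651, 1789 and 927 with GSK2801 and 6053, 8086 and 2900.1 with both. The groups did not overlap. On the list of p53 targets and CDK inhibitors, CDKN1A and TP53I3 (2.0 ± 0.27) were the 2 rises among 20 tested. The share that rose over all genes tested was 1.87%. The list had no fall and a median of 0.25 (0.07 without the HCC1806 pair). Of the BCL2 family none of 13 passed. The proapoptotic BCL2L11 (BIM) had 1.24 ± 0.30 (0.0748) and the antiapoptotic BCL2 -0.97 ± 0.22 (0.0692).

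Interferon-response genes had a median of -0.95, with 3 falls and 1 rise among 34 tested, against 1.79% and 1.87% over all genes tested. The falls were IFI44 (-2.81 ± 0.31), OAS3 (-2.42 ± 0.26), an oligoadenylate synthetase, and PARP14 (-1.21 ± 0.18), and the rise was IRF7 (1.86 ± 0.29), a transcription factor of the pathway. IFI44 signal was 378, 137 and 430 with GSK2801 and 61.4, 21.3 and 45.8 with both, without overlap. IRF7 had 223, 380 and 60.9 with GSK2801 and 1194, 949 and 221 with both, so it moved against the other 3 in each line. The list median was -0.70 after quantile normalization, and it lay between -0.69 and -0.62 without the SUM159 or the HCC1806 pair.

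Genes under the amino acid stress factor ATF4 and endoplasmic reticulum stress genes, such as the chaperone HSPA5, had a median of -0.49. This list gave 4 falls and no rise among 29 tested, against 1.79% and 1.87% over all genes tested. The pseudokinase TRIB3 fell by 1.95 on the log2 scale (1272, 1763 and 1999 with GSK2801 and 471, 395 and 414 with both). The cystine transporter SLC7A11 changed by -2.0 ± 0.19, the cationic amino acid transporter SLC7A1 by -1.15 ± 0.14 and NUPR1 by -3.99 ± 0.65. SLC7A11 had 4162, 10597 and 11409 with GSK2801 and 1017, 3499 and 2226 with both, and NUPR1 was listed at 0 in the HCC1806 combination library. VEGFA, an angiogenic factor, fell (-1.66 ± 0.21) and was the 1 call among 27 genes of hypoxia and glycolysis. TM7SF2 rose (2.87 ± 0.28) and was the 1 call among 29 genes of cholesterol synthesis. In both lists the share called was near that over all genes tested, 3.65%.

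Ribosome biogenesis gave 3 falls and no rise among 57 tested, against 1.79% and 1.87% over all genes tested. Its median was -0.52, and 40 of the 57 had a negative ratio in all 3 lines, against 30.8% of all genes tested. The falls were GAR1 (-1.42 ± 0.21) and FBL (-0.95 ± 0.14), core proteins of the small nucleolar ribonucleoproteins that modify ribosomal RNA, and ZNRD1 (-1.57 ± 0.26), a subunit of RNA polymerase I. GAR1 signal was 778, 1570.2 and 602 with GSK2801 and 359, 524 and 202 with both, without overlap. FBL had 4205, 6568 and 4638 with GSK2801 and 2245, 3187 and 2457 with both, and every line's ratio was between -1.04 and -0.91. Of 51 ribosomal protein genes none passed, and their median was -0.06.

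Among the protein-coding genes that passed, IL7R had the largest fall, with 621, 1465 and 4773 with GSK2801 and 16.1, 53.4 and 19.2 with both and a change of -5.94 ± 0.63 (adjusted p = 0.0362, limma). IL7R encodes a receptor, not an NF-kB factor or a cytokine. It was the 1 call among 23 tested genes on the list of NF-kB factors and secreted inflammatory genes. The list median was -0.68 and, without the MDAMB231 pair, -0.20. NFKB1 had -0.88 ± 0.16 with an adjusted p of 0.0503 (limma), just above the threshold. HAS2 had 217, 571 and 1124 with GSK2801 and 12.1, 44.5 and 65 with both, a change of -3.93 ± 0.29 and log2 ratios of -4.06, -3.65 and -4.09. It was the 1 call among 38 mesenchymal and matrix genes, and 34 epithelial and keratinocyte genes gave none. Of all genes tested 3.65% passed. CCAT1 was listed at 0 in 2 combination libraries (246, 0 and 0) against 6899, 16.2 and 505 with GSK2801, so its size of -5.97 depends on the pseudocount. The larger falls among abundant genes included those of the adhesion molecule CLMP (-2.66 ± 0.47), SLC7A11, the chromatin reader ZMYND8 (-1.75 ± 0.28) and the aminotransferase BCAT1 (-1.60 ± 0.27).

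MYC, often described as a BET-dependent oncogene, had 8959, 7916 and 8906 with GSK2801 and 7079, 8432 and 2599.7 with both. The value was lower with both inhibitors in SUM159 and HCC1806 and slightly higher in MDAMB231, and the change of -0.67 ± 0.36 did not pass (adjusted p = 0.266, limma). No gene of 12 in the MYC network passed. FOSL1, an AP-1 subunit, had 804, 7882 and 6066 with GSK2801 and 992, 4479 and 771 with both, with ratios of 0.30, -0.82 and -2.97 and no call. On the list of 27 AP-1 and ERK output genes, JUND rose (1.54 ± 0.20), and BATF3 (-2.69 ± 0.43) and ETV4 (-1.51 ± 0.21) fell. The share that passed over all genes tested was 3.65%.

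Cell cycle genes split by line. Of 41 mitosis genes and 43 DNA replication genes none passed, against 3.65% of all genes tested. Their medians over lines were -0.82 and -0.50 (-0.11 and -0.03 without the MDAMB231 pair). In MDAMB231 the mitosis median was -2.23 and 40 of 41 genes were at least 2-fold lower, whereas the medians were -0.10 in SUM159 and -0.11 in HCC1806, with 0 genes at least 2-fold lower in either. For DNA replication the medians were -0.07, -1.46 and -0.01, and 32 of 43 genes were at least 2-fold lower in MDAMB231 against 1 in each other line. Over all genes tested, 11.7% were at least 2-fold lower in MDAMB231, 11.5% in SUM159 and 11% in HCC1806. MKI67, the proliferation antigen, had 15738, 14582 and 46182 with GSK2801 and 13064, 1936 and 33186 with both, and the survivin gene BIRC5 3764, 3780.1 and 5650.3 with GSK2801 and 3676, 914 and 5454 with both. FOXM1, a transcription factor of the G2 and M phases, had 3287, 5648 and 6955 with GSK2801 and 1989, 1094 and 3541 with both and ratios of -0.72, -2.37 and -0.97. MDAMB231 received the lowest JQ1 dose, and its combination library was the deepest. With 1 library per line and treatment these line differences have no test.

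**Figure D3:**
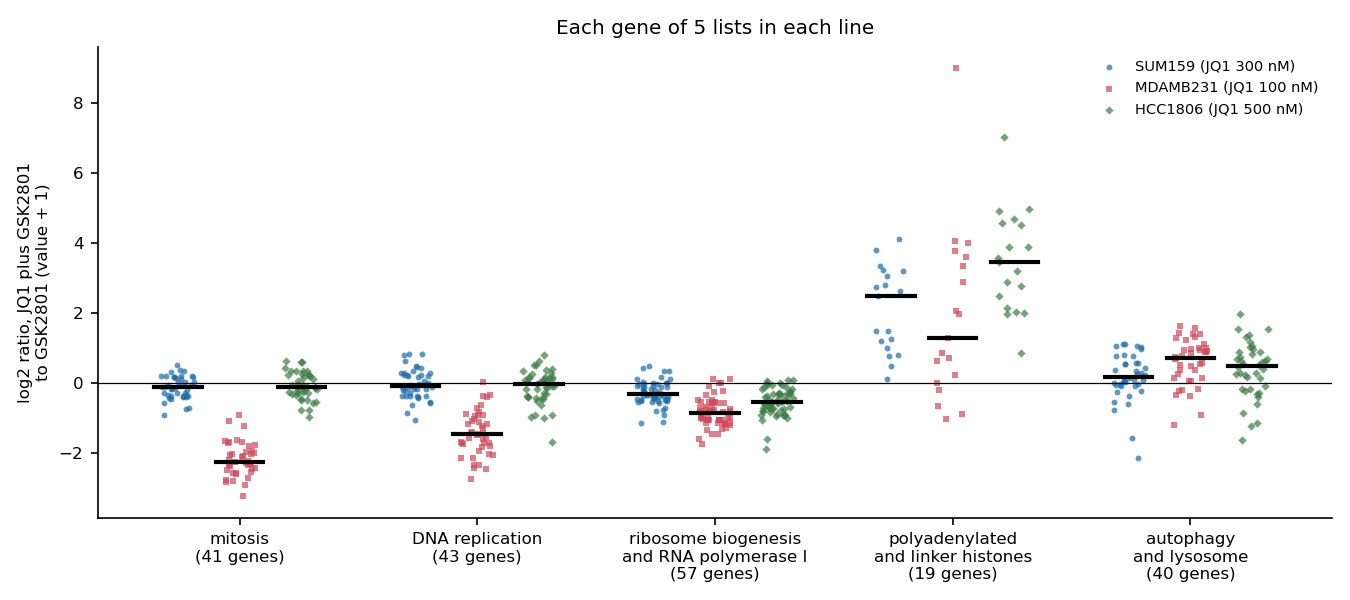
Log2 ratio of JQ1 plus GSK2801 to GSK2801 for every tested gene of 5 lists in each line, with black bars at the medians. All 41 mitosis genes lie below 0 in MDAMB231 and around 0 in SUM159 and HCC1806, while ribosome biogenesis is mostly below 0 and the histone list mostly above 0 in each line.

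G1 cyclins and kinases gave 1 fall among 15 tested, against 1.79% over all genes tested. It was E2F2, a transcription factor of S-phase entry, with -2.26 ± 0.39. E2F2 signal was 494, 229.8 and 760.5 with GSK2801 and 192, 26 and 150.3 with both. CCND1, cyclin D1, had 0.83 ± 0.29 and did not pass. The DNA repair gene FANCD2 had 1829, 1375 and 3027 with GSK2801 and 775, 67.4 and 1583 with both. Its ratio was lowest in MDAMB231 (-1.24, -4.33 and -0.93).

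Counted by line, with no test, 534 genes were at least 2-fold higher and 1418 at least 2-fold lower in SUM159 (4.31% and 11.5%), 1307 and 1449 in MDAMB231 (10.6% and 11.7%), and 981 and 1361 in HCC1806 (7.92% and 11%). The SUM159 excess of lower genes depends on scaling: after quantile normalization the counts were 854 and 904, and the median of all its genes moved from -0.12 to 0.02. In all 3 lines, 191 genes were at least 2-fold higher and 294 at least 2-fold lower, and 225 genes were past 2-fold in opposite directions in some pair of lines. Across the 12379 genes, log2 ratios of 2 lines had a Pearson r of 0.44 to 0.52, and genes are not independent replicates. Of all genes tested, 53.3% had the same sign in the 3 lines, and in 11.8% the 3 values of a group did not overlap those of the other.

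Single genes set a line apart. UCA1, a long noncoding RNA, had 4.37, 1243 and 5784 with GSK2801 and 411, 3432 and 10612 with both, with ratios of 6.26, 1.46 and 0.88. The EGFR ligand AREG had 56.9, 8905 and 4849 with GSK2801 and 308, 3806 and 2406 with both, with ratios of 2.42, -1.23 and -1.01. Both had their highest ratio in SUM159, where their level with GSK2801 was lowest. The matrix protein TNC had 2467, 1685 and 142 with GSK2801 and 2335, 163 and 17.1 with both, with ratios of -0.08, -3.36 and -2.98. In HCC1806 the interleukin IL1B went from 2822 to 11.7, the activin subunit INHBA from 5741 to 165 and ANKRD1, a YAP target, from 246 to 11.7, while ANKRD1 was at 19515 and 22499.5 in the MDAMB231 pair. PLD1, a phospholipase, had ratios of -1.78, 2.91 and 3.05, and DHRS2, a dehydrogenase, 2.80, -0.52 and 3.67. In SUM159 some stromal genes were lower with both inhibitors, COL3A1 at 34.0 against 4596 and PDGFRA at 165 against 4788. PECAM1, an endothelial marker, was at 290.1 against 1145 in that line. The fibroblast and adipocyte marker list summed to between 174 and 50557 with GSK2801 and between 127 and 12344 with both, and its part in the results was not tested. Of the marker lists, 10 luminal breast, 3 blood or endothelial and 7 fibroblast or adipocyte genes were tested, and none passed, against 3.65% of all genes tested. In HCC1806, 7 of the 10 luminal genes were at least 2-fold higher and 0 lower, against 7.92% and 11% of all genes tested. In SUM159, 6 of the 7 fibroblast or adipocyte genes were at least 2-fold lower and 0 higher, against 11.5% and 4.31%. The blood and endothelial list summed to between 1307 and 4206 with GSK2801 and between 1025 and 9182 with both.

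Without GSK2801, in the 6 libraries with DMSO or JQ1 only, JQ1 changed 996 of 12398 genes tested (8.03%), of which 457 rose (3.69%) and 539 fell (4.35%). Which direction had more calls depended on scaling, with 587 higher and 438 lower after TMM rescaling and 479 and 321 after quantile normalization. limma called 0 genes without the low-value filter, without the variance trend, with a 1.5-fold threshold or with no line block (4374, 3433, 900 and 561 at an unadjusted p under 0.05). Here the MDAMB231 pair mattered, since limma called 0 genes without it (2678 at an unadjusted p under 0.05). Of the 452 genes called with GSK2801, 388 were also called without it, which is 85.8% of the 452 and 39% of the 996, and all 388 had the same sign. Of the 448 that were tested in both, 391 had a larger mean log2 change with GSK2801; these genes were chosen by their change with GSK2801, which favours that side. The 2 responses share no library, and their log2 changes over 12271 genes had a Pearson r of 0.91 for the mean of the lines and 0.81, 0.88 and 0.87 per line.

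**Figure D4:**
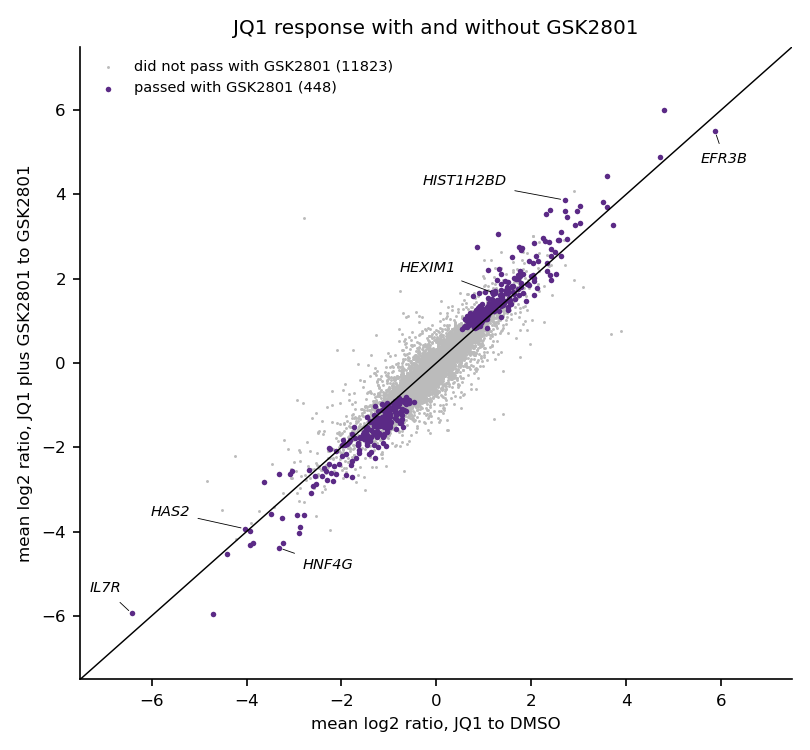
Mean log2 ratio over 3 lines for 12271 genes, JQ1 plus GSK2801 to GSK2801 on the vertical axis against JQ1 to DMSO on the horizontal axis, with the line of equal values. The 448 genes that passed with GSK2801 (purple) have the same sign on both axes.

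The difference of the 2 responses was tested directly with the 12 libraries, and limma called 0 of 12396 genes (0%). At an unadjusted p under 0.05 there were 1237 genes, and the smallest adjusted p was 0.369. The count at that unadjusted p depended on the fit: it was 144 when the lines shared their effects of JQ1 and GSK2801 and only the line block was kept, and 1 with no line block. By chance alone 620 would be expected. Leaving out the SUM159 libraries gave 3 calls, which were ALPP (1.89), DIP2C (3.50) and the readthrough symbol RNASEK-C17orf49 (-4.21), and leaving out the MDAMB231 libraries gave 1, ZNF512B (-3.90). HEXIM1 was higher by a log2 ratio of 1.65 with GSK2801 and 1.23 without it. The difference was 0.42 ± 0.08, with 0.41, 0.41 and 0.44 per line, an unadjusted p of 9.14e-04 and an adjusted p of 0.389 (limma). HIST1H2BD had 3.87 and 2.71, a difference of 1.16 ± 0.18 (unadjusted p = 3.53e-04, limma) with 0.72, 1.17 and 1.59 per line. NEU1 had a difference of 0.41 ± 0.08, HIST1H2AC of 0.90 ± 0.18 and SLC7A11 of -0.76 ± 0.15, each of the same sign as the JQ1 response. These genes were chosen by their change with GSK2801, which is part of the difference and favours that sign. For KYNU and HNF4G the differences were -1.04 ± 0.40 and -1.07 ± 0.43, whereas EFR3B had -0.37 ± 0.53 and HAS2 0.10 ± 0.26. None of these differences passed the adjusted threshold.

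The genes of smallest p for a more positive response with GSK2801 were CD68 (0.93 ± 0.11), ALPP (1.93 ± 0.23), TRNP1 (0.92 ± 0.12), HIST1H2BD and C16orf91 (1.55 ± 0.25). Those for a more negative response were ANXA8 (-1.04 ± 0.14), SCNN1A (-0.84 ± 0.12), ADGRG6 (-0.74 ± 0.11), RBL2 (-0.70 ± 0.10) and LAMA5 (-0.61 ± 0.09). CD68, a lysosomal glycoprotein, had a log2 change of 0.41 with GSK2801 and -0.52 without it, with differences of 0.89, 0.74 and 1.15 per line. RBL2, the pocket protein p130, had -0.60 and 0.10.

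Lists can be set side by side in the same way, as medians per line. The mitosis medians in SUM159, MDAMB231 and HCC1806 were -0.10, -2.23 and -0.11 with GSK2801 and -0.33, -1.05 and -0.01 without it, so that SUM159 was nearer 0 with GSK2801 and MDAMB231 farther from it. In MDAMB231, 40 of 41 mitosis genes were at least 2-fold lower with GSK2801 and 23 without it. The DNA replication medians were -0.07, -1.46 and -0.01 with GSK2801 and -0.01, -0.94 and -0.04 without it, and in MDAMB231 32 and 21 of 43 genes were at least 2-fold lower. For GSK2801 against DMSO, without JQ1, the mitosis genes had a median log2 ratio of -0.28 (SUM159), -0.03 (MDAMB231) and -0.003 (HCC1806). The SUM159 reference with GSK2801 thus already lay below DMSO for this list. Its part in the SUM159 shift toward 0 was not tested. The histone medians were 2.50, 1.30 and 3.46 with GSK2801 and 1.42, 0.64 and 2.93 without it. Ribosome biogenesis had -0.31, -0.86 and -0.52 with GSK2801 and -0.33, -0.94 and -0.72 without it, and 18 of its 57 genes fell without GSK2801, against 3 with it, beside totals of 996 and 452 calls. These differences between medians have no test of their own.

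**Figure D5:**
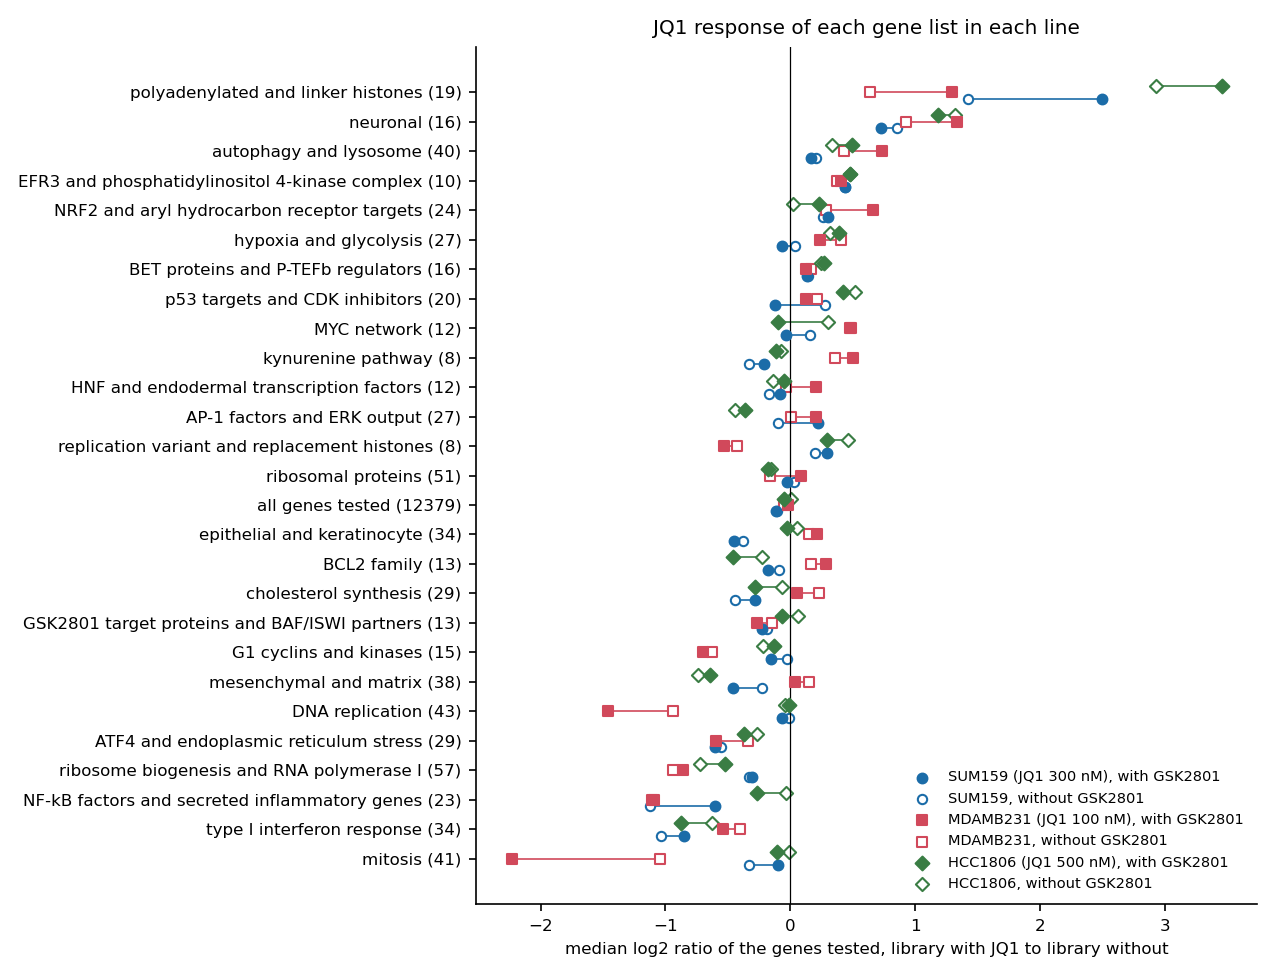
Median log2 ratio of each gene list (number of genes tested in brackets) in each line, for JQ1 added to GSK2801 (filled) and JQ1 against DMSO (open). Among the filled symbols of MDAMB231 the mitosis and DNA replication lists lie farthest to the left, and the list of polyadenylated and linker histones lies to the right of 0 in all 3 lines with both kinds of symbol.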

How the data were processed

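PolyA RNA of 12 libraries was measured, and the 6 with GSK2801 carry the main comparison. Per the submitters' processing notes the authors used STAR 2.4, Salmon 0.60 and the hg38 build. The deposited files give 1 value per gene symbol, taken as signal, meaning estimated reads that the authors had scaled to a common upper quartile; the scaling step itself is not given in the sources used here. Between 67.3% and 69.2% of values above 0 were whole multiples of 1 read's value, within 0.02, which gave the depths, and no counting interval was computed. The labels name both a KAPA stranded kit and Illumina TruSeq v2. Of 28539 entries, 27 that a spreadsheet had turned into dates were left out.

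After log2 transformation with a pseudocount of 1, genes with a mean of at least 50 were fitted by limma 3.58.1 (R 4.3.3) with a variance trend, which left 2 residual and 3.72 prior degrees of freedom. As the unit is signal, no count model was run. The difference of responses was fitted over 12 libraries with each line's own JQ1 and GSK2801 effects. Replicate numbers pair libraries by line: libraries of a line correlated at 0.922 to 0.994 and those of other lines at 0.586 to 0.748.

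Genes named were first the 10 largest rises and falls among genes that passed with the same sign in the 3 lines. To these came the 5 largest of each with a mean of at least 2000, a fixed set of genes and the 4 members of smallest adjusted p in each list. Also named were the 5 genes per direction with the smallest p for the difference. The rest were the 3 genes per direction farthest from the other lines, in each line, with a mean of at least 200. PDGFRA and further list members are named outside that rule, after their values were seen, and a few genes that the rule takes are not reported here. The members and the 29 lists were chosen with earlier results of these data known. Alternatives varied the pseudocount, the filter, the scaling, the trend, a fold threshold, the line block, the libraries pooled and the lines left out. Promoter windows matched 81.3% of the genes tested. Gene positions are from GENCODE on hg38.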

Additional observations from a re-analysis of the deposited data

Results flagged for a closer look

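For 4 of the named genes 1 line moved at least 2-fold one way and both other lines at least 2-fold the other way. The difference was not tested, since each line has 1 library per treatment. AREG, the EGFR ligand, had a log2 ratio of 2.42 in SUM159 against -1.23 in MDAMB231 and -1.01 in HCC1806. SCNN1A, an epithelial sodium channel subunit, had 1.26 in MDAMB231 against -1.31 and -1.17 in SUM159 and HCC1806. PLD1 had -1.78 in SUM159 against 2.91 and 3.05 in the other lines. FAM49A had -1.29 in MDAMB231 against 1.99 and 2.44. Among all 12379 genes tested 61 had such a pattern (0.493%), and the lines also differed in JQ1 dose and, for HCC1806, in medium.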

How the results depend on the processing

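The 452 calls with GSK2801 became 300 with a mean of at least 10, and 4047 when all 12 libraries were pooled with the replicate block, where the other JQ1 libraries share the residual. They became 0 without the low-value filter, without the variance trend, with a 1.5-fold threshold and with no replicate block (4217, 3347, 1025 and 648 genes at an unadjusted p under 0.05, limma). Leaving out 1 line gave 0 to 405. The share of calls that fell was 48.9%, and it was 38.9% of 632 after TMM rescaling, 37.4% of 436 after quantile normalization and 58.9% with 12 libraries. JQ1 without GSK2801 called 996 genes, 0 in the same 4 settings, 3210 with 12 libraries, and 0 to 1376 without 1 line, and its share of falls was 54.1%, against 42.7% (TMM) and 40.1% (quantile). The difference of responses gave 0 calls, or 0 to 3 without 1 line. SUM159 counts past 2-fold were 854 higher and 904 lower after quantile normalization. Signs turned for PECAM1 (0.044 at a pseudocount of 0.5), PNMA2 (0.26 at a pseudocount of 10) and the EFR3B difference (0.058 at a pseudocount of 10). Leaving out 1 line turned further signs, with log2 changes from -1.24 to 0.043 for SCNN1A, -1.12 to 0.70 for AREG, -1.28 to 1.11 for PNMA2, -2.08 to 0.00942 for ZNF512B, -0.095 to 0.28 for BAZ2A, -0.16 to 1.44 for ALPP, -0.21 to 0.73 for C16orf91, -1.37 to 1.95 for BLOC1S5-TXNDC5, -0.60 to 1.22 for CA13, -2.04 to 0.48 for ANKRD1, -0.018 to 0.65 for KDR and -1.27 to 0.21 for the EFR3B difference. None of these had passed, and the cause was not tested. Of the 60 named genes that passed, none reversed under the alternatives run, and 60 passed after TMM rescaling, 56 after quantile normalization, and 0 without SUM159 or without HCC1806. All 452 calls had the same sign in the 3 lines, so leaving out 1 line or changing the pseudocount could not have reversed them. No setting replaces a second culture per line.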
